A study of Mus musculus with 32 samples.

Results

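Sorted intestinal stem cells of PparDA mice, which carry the Ppard-fl/fl and Ppara-null alleles together, were compared with those of WT mice, both on the control diet. The comparison uses 8 of the 32 libraries of the series, 4 of each genotype, chosen by their labels alone. The other 24 libraries hold the same genotypes on a high-fat diet and the PparD (Ppard-fl/fl) and PparA (Ppara-null) genotypes on both diets, in groups of 4. All mice carry the strain label C57BL6, and all cells were the brightest GFP fraction sorted after staining for CD326, an epithelial surface protein, and with the viability dye DAPI. RNA was extracted with TRI reagent and polyadenylated RNA was read near its 3' end (High Throughput 3'DGE). The title of the series places the study in high-fat feeding, fatty acid oxidation and stemness. The control-diet comparison shows how PparDA stands without the high-fat diet. How and whether the floxed Ppard allele was recombined, the age of the mice, the length of the diets and the number of animals behind a library are not stated in the labels. Each p therefore measures the spread between samples.

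PPAR-alpha and PPAR-delta, encoded by Ppara and Ppard, are nuclear receptors that are switched on by fatty acids. They bind DNA paired with RXR, at repeated hexamers, and raise the transcription of genes for fatty acid uptake and for mitochondrial and peroxisomal oxidation. Stem cells at the base of the intestinal crypt divide to supply absorptive enterocytes and the secretory goblet, Paneth, enteroendocrine and tuft cells. In this lineage PPAR-delta is known for its link between dietary fat and stem cell activity.

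The receptors were near the limit of detection. Ppara (chr15:85734983-85802819, GRCm38) had 3, 1, 0 and 2 counts in the WT libraries of runs 1 to 4 and 4, 1, 1 and 4 counts in the PparDA libraries. Ppard (chr17:28232700-28301474) had 2, 1, 3 and 4 counts in WT and 3, 6, 5 and 1 in PparDA. A run is a stretch of 8 consecutive library numbers that holds each group once. For both receptors the genotypes overlapped. Reads at the 3' end need not lie in the part of either gene that its allele alters. The position of that part was not examined, so these counts neither check the labels nor show a loss. Pparg, the third receptor of the family, had 1 to 4 counts per library in WT and 1 to 3 in PparDA.

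The 8 libraries held between 612672 and 695595 counts and between 11683 and 12212 genes with a count. Libraries of runs 1 and 3 carried the X-inactivation transcript Xist, and those of runs 2 and 4 the Y-linked Ddx3y, so runs differ in the sex of the animals but genotypes within a run do not. The WT library of run 4 stood apart. Its goblet cell markers summed to 1751 CPM (counts per 1e+06 counts of the library) against at least 4371 in the other WT libraries, and its Paneth cell markers to 16640 CPM against at most 5614. In bulk samples, fewer cells of a type and less RNA per cell cannot be told apart. Intestinal stem cell markers were present in both genotypes: their list summed to 8817 to 14040 CPM in WT and 10820 to 13710 CPM in PparDA. Most of each sum was Olfm4, which is given below with the far lower Lgr5. Lymphocyte and myeloid markers summed to at most 7.571 CPM in WT and 23.04 CPM in PparDA, with Trac, Gzmb, Cd52 and Coro1a at 0 in all 8 libraries. Of the 13 stromal and endothelial markers 9 were at 0, and so were all 5 red blood cell markers.

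Of the 5872 genes tested, 98 rose and 67 fell in PparDA at an adjusted p under 0.05 (edgeR quasi-likelihood test with the run as a block, Benjamini-Hochberg adjustment), which is 2.81% of the genes tested, 1.67% upward and 1.14% downward. Another tool, DESeq2, called 136 genes. The called genes were 137 protein coding genes, 20 pseudogenes and 8 of other kinds. A change of more than 2-fold was seen for 89 of them and of more than 4-fold for 45. In 136 of the 165 called genes the 4 PparDA libraries lay entirely outside the range of the 4 WT libraries; over all tested genes 7.8% had such ranges. Every single run went the way of the call for 93 of the 98 genes that rose and for 62 of the 67 that fell. The calls were sensitive to single libraries: 57 of them (41 higher, 16 lower) were kept on leaving out each of the 8 libraries in turn, and 77 were lost in 4 or more of these 8 fits.

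**Figure D1:**
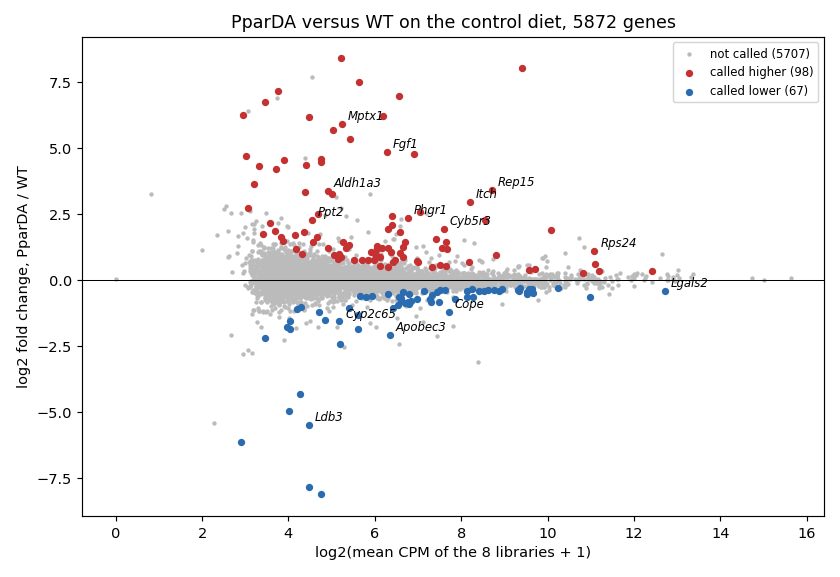
Log2 fold change of PparDA over WT on the control diet (vertical axis) against mean log2 expression (horizontal axis) for the 5872 genes tested. Colored points are the 98 genes that rose and the 67 that fell at an adjusted p under 0.05. The named genes include Cyb5r3 and Fgf1 above zero and Ldb3 and Apobec3 below.

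A few genes of fatty acid breakdown, known as PPAR targets, rose in PparDA. Of 39 canonical PPAR targets listed, 22 were tested, and 20 of these lay above WT with a median log2 difference of 0.41, against 0.002 over all tested genes. Only 4 passed the test, all upward (18.2% of the 22 tested, beside 1.67% of all tested genes). Acaa2, Acadl and Angptl4 were among them. Of 29 mitochondrial fatty acid oxidation genes, 22 were tested and 18 were higher, with a median log2 difference of 0.31. Acaa2, Acadl and Etfdh passed the test, all upward (13.6% of the 22 tested). With DESeq2 the list had 1 call, and in runs 1 and 3 alone neither list had any. Of 14 peroxisomal oxidation genes tested, 9 were higher and none passed. The lists share members, and 17 of the 39 targets were not tested.

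Acaa2, the thiolase that ends each round of mitochondrial beta-oxidation, had 220, 258, 191 and 219 CPM in the WT libraries of runs 1 to 4. In PparDA it had 333, 380, 371 and 349 CPM. No library of one genotype reached the range of the other, and the log2 fold change was 0.69 ± 0.16 (SE, n = 4 against 4, edgeR adjusted p = 0.011). Without the WT library of run 3 the call was lost. Acadl, the long-chain acyl-CoA dehydrogenase of the same pathway, was a low-count gene with 9.38, 8.75, 6.06 and 4.29 CPM in WT and 15.1, 17.6, 24.4 and 24.7 CPM in PparDA. These ranges did not overlap either, with a log2 fold change of 1.48 ± 0.41 (edgeR adjusted p = 0.047). That call was lost with DESeq2 and on leaving out any library except the WT library of run 1.

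Etfdh, which passes the electrons of acyl-CoA dehydrogenases on to ubiquinone, had 64.3, 37.9, 62.1 and 58.6 CPM in WT. Its PparDA values were 86.0, 82.2, 91.6 and 62.5 CPM. The lowest PparDA library lay between WT libraries. The log2 fold change was 0.54 ± 0.14 (edgeR adjusted p = 0.029), and the call was lost without the run as a block, with DESeq2, and on leaving out the PparDA library of run 1, 2 or 3 or the WT library of run 2 or 3. Angptl4, a secreted inhibitor of lipoprotein lipase, had 0, 4.37, 3.03 and 0 CPM in WT and 9.05, 7.34, 12.2 and 23.04 CPM in PparDA. All PparDA libraries exceeded all WT libraries, at only a few counts each. Its log2 fold change was 2.71 ± 0.75 (edgeR adjusted p = 0.045), a call lost on leaving out any library except the PparDA library of run 2.

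Other PPAR targets did not pass the test. Fabp1, the liver-type fatty acid binding protein, had 162, 144, 153 and 97.1 CPM in WT and 320, 254, 443 and 569 CPM in PparDA. Its ranges did not overlap, yet the log2 fold change of 1.52 ± 0.61 had an edgeR adjusted p of 0.21. Hadha, a subunit of the mitochondrial trifunctional protein, averaged 91.1 CPM in WT and 134 CPM in PparDA (adjusted p = 0.084). Cpt1a, the gate for long-chain fatty acids into mitochondria, differed by 0.52 ± 0.40 on the log2 scale (adjusted p = 0.58). Plin2, which coats lipid droplets, went the other way, with a log2 difference of -0.44 ± 0.15 (adjusted p = 0.12). Acadvl, the dehydrogenase for very long chains, had 95.1, 68.5, 66.6 and 68.6 CPM in WT and 86.0, 61.6, 65.7 and 72.4 CPM in PparDA. Its ranges overlapped, with a log2 difference of -0.07 (adjusted p = 0.90). Pdk4, a classical PPAR target that restrains pyruvate oxidation, was not tested: it had at most 1 count in any of the 8 libraries.

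**Figure D2:**
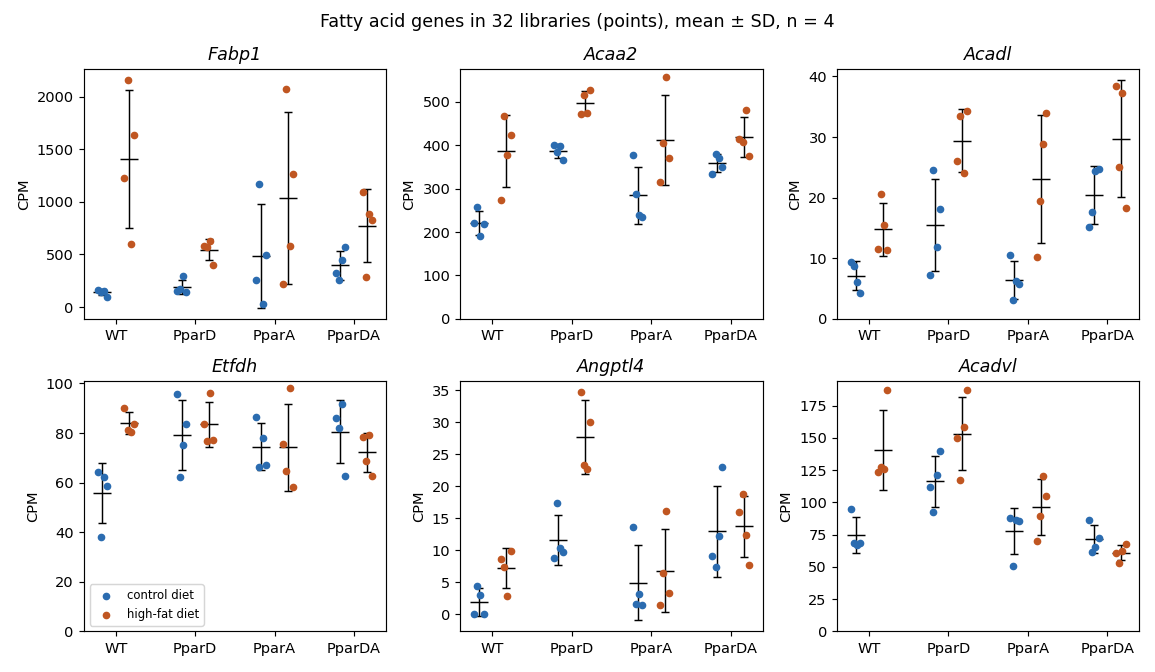
CPM of PPAR target and fatty acid oxidation genes in each of the 32 libraries (points), by genotype and diet, with the group mean and SD (bars, n = 4). On the control diet the 4 PparDA libraries of Acaa2 (333 to 380 CPM) lie above the 4 WT libraries (191 to 258 CPM), while Acadvl overlaps.

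The promoters of genes called higher were searched for the binding motif of PPAR-RXR pairs, 2 copies of AGGTCA with 1 base between them, on both strands, allowing 2 of the letters to differ. The window ran from 250 bases before to 50 bases after each RefSeq start site (GRCm38.p6). Of all 27025 genes with a promoter 4.4% held a match, among tested genes 4.2%, among the 49 genes called higher with a promoter 8.2% (4 genes) and among the 49 called lower none. Of the canonical targets 5 of 30 held a match (Cd36, Creb3l3, Fabp1, Plin2 and Slc25a20). The 4 sites of genes called higher are shown because they are the ones that can be set against the expression values, and Fabp1 and Plin2 are shown as known targets. Each runs 5′ to 3′ on the strand of its gene, with the 13 matching bases in capitals.
Phgr1, chr2:118772561-118772573, 1 letter different: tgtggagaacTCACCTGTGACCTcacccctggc
Bco2, chr9:50555294-50555306, 2 letters different: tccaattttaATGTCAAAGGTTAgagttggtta
Oxa1l, chr14:54360745-54360757, 2 letters different: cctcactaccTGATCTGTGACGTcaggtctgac
Scpep1, chr11:88955577-88955589, 2 letters different: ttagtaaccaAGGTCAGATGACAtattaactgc
Fabp1, chr6:71199812-71199824, 1 letter different: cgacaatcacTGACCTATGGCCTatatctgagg
Plin2, chr4:86670272-86670284, 2 letters different: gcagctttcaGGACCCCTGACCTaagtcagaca
The windows of Acadl, Etfdh, Acadvl, Cpt1a and Pdk4 held no match with these letters. A gene counted as holding a match if the window of any of its start sites did. For Bco2 the window of another start site (chr9:50553613-50553912) held no match, with 4 letters different at best. Angptl4 and Acaa2 were not searched. A match is a description of letters only.

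These 4 genes rose as follows. Phgr1, a small protein of the gut epithelium, had 36.2, 29.2, 34.8 and 41.4 CPM in WT and 226, 134, 145 and 214 CPM in PparDA, a log2 fold change of 2.35 ± 0.39 (edgeR adjusted p = 0.00058). Bco2, which cleaves carotenoids, had 9.38, 0, 7.57 and 17.1 CPM in WT and 34.7, 27.9, 25.95 and 32.9 CPM in PparDA (log2 fold change 1.81 ± 0.40, adjusted p = 0.0084). The ranges of both genes were apart. Scpep1, a serine carboxypeptidase, had 28.1, 52.5, 53.0 and 35.7 CPM in WT and 134, 148, 188 and 118 CPM in PparDA (log2 fold change 1.81 ± 0.28, adjusted p = 0.00015). Its ranges were apart too, and Oxa1l is given with the genes of chromosome 14.

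The other lipid lists held few or no calls. None of 9 tested fatty acid synthesis genes passed, although all 9 were lower, with a median log2 difference of -0.24; Scd2, a stearoyl-CoA desaturase, averaged 26.9 CPM in WT and 7.11 CPM in PparDA (edgeR adjusted p = 0.084). Of 16 cholesterol synthesis genes 13 were lower and none passed. Lipid uptake and lipoprotein genes were higher in 13 of 18 with a median of 0.56, and again none passed. In the list of cytochrome P450 and retinol metabolism 15 of 18 genes were higher and the median was 0.87. It had 3 calls, 2 higher and 1 lower (16.7%, beside 2.81% of all tested genes). Cyp2c65, a P450 that oxidises polyunsaturated fatty acids, fell from 56.3, 39.4, 59.1 and 55.7 CPM in WT to 16.6, 14.7, 12.2 and 28.0 CPM in PparDA. No library overlapped, and the log2 fold change was -1.58 ± 0.29 (edgeR adjusted p = 0.002). Hsd17b13, a lipid droplet dehydrogenase, rose by 1.63 ± 0.39 on the log2 scale (adjusted p = 0.017), a call lost without the WT library of run 1 or 2 or the PparDA library of run 2 or 3. Ces2e, a carboxylesterase, rose by 1.22 ± 0.33 (adjusted p = 0.038), which was lost on leaving out any library other than the PparDA libraries of runs 1 and 2.

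Of 12 tested glycolysis genes 8 were higher and 4 lower, and 2 were called, both lower (16.7%, beside 1.14% of all tested genes). Pkm, the pyruvate kinase of muscle type that catalyses the last step, had 330, 319, 385 and 336 CPM in WT and 199, 226, 260 and 196 CPM in PparDA. Its ranges were apart, and it fell by 0.63 ± 0.16 on the log2 scale (edgeR adjusted p = 0.026); the call was lost without the WT library of run 1, 2 or 3 or the PparDA library of run 1 or 4. Hk2, a hexokinase, fell by 0.65 ± 0.18 (adjusted p = 0.042) with overlapping ranges, and that call was kept only without the PparDA library of run 1 or the WT library of run 3. Mitochondrially encoded transcripts were higher in 13 of 15, and 2 were called, both higher (13.3%, beside 1.67% of all tested genes). Of these, mt-Nd4, a subunit of complex I, rose from 4648, 5038, 4335 and 5240.0 CPM to 5820, 6196, 6281 and 6154 CPM. Its ranges did not overlap (0.35 ± 0.08 on the log2 scale, adjusted p = 0.012), and the call was lost without the WT library of run 3. The other called transcript, mt-Nd2, rose by 0.27 (edgeR adjusted p = 0.045), a call lost on leaving out any 1 library. The lists of the tricarboxylic acid cycle, NRF2 targets, the unfolded protein response, interferon response and Wnt and Notch genes had no called member.

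On the high-fat diet, measured in other libraries of the same genotypes, no PPAR target was called higher. There 128 genes were called between these genotypes (2.18% of those tested; 1.18% rose and 1% fell). Among the 22 PPAR targets 9 were higher and 13 lower, 2 were called lower (9.09%), and the median log2 difference was -0.07. The mitochondrial oxidation list had the same median, with 7 of 22 genes higher, 15 lower and 3 called lower (13.6%). Acadvl, level on the control diet, averaged 141 ± 31.0 CPM in WT and 60.9 ± 5.88 CPM in PparDA (SD, n = 4 each) on the high-fat diet, a log2 fold change of -1.20 ± 0.16 (edgeR adjusted p = 2.3e-05). Ech1 and Eci2, auxiliary enzymes for unsaturated fatty acids, fell by 0.43 (adjusted p = 0.038) and 0.89 (adjusted p = 0.031) on the log2 scale.

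For Acaa2 the control-diet means were 222 ± 27.7 CPM in WT and 358 ± 21.2 CPM in PparDA (SD, n = 4 each), and those under high fat 385 ± 82.8 and 418 ± 44.9 CPM. For Fabp1 the control-diet means were 139 ± 28.9 and 396 ± 139 CPM, and those under high fat 1406 ± 657 in WT and 774 ± 345 CPM in PparDA. The difference between the diets in the effect of the genotype was itself tested. It was called for 4 of 5872 genes (0.0681%; 3 of them, 0.0511%, downward; 394 had an unadjusted p under 0.05), Rps24, Acadvl and the pseudogenes Rpl31-ps8 and Rpl28-ps1, each at an edgeR adjusted p of 0.045. Without the run as a block none was called, and DESeq2 called 1. For Acadvl this difference was -1.13 ± 0.23 on the log2 scale.

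Over all genes the comparisons on the 2 diets had much in common. Of the 165 genes called on the control diet 68 were also called on the high-fat diet, each in the same direction; that is 41.2% of the control-diet calls and 53.1% of the high-fat calls. Their sign was the same in 150 of 165 genes, and 127 of 165 had a smaller fold change on the high-fat diet. There 80 of the 165 had ranges that did not overlap, beside 7.87% of all tested genes. The median size of the log2 fold change of the 165 genes was 1.1 on the control diet, where they were selected, and 0.61 on the high-fat diet. Across the 5872 genes, which are not independent replicates, the log2 fold changes had a Pearson r of 0.614.

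**Figure D3:**
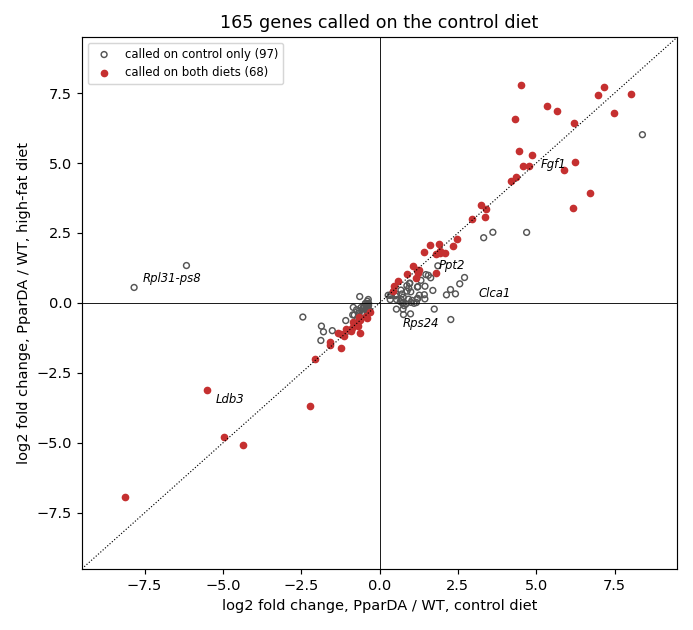
Log2 fold change of PparDA over WT on the high-fat diet (vertical axis) against that on the control diet (horizontal axis), which share no library, for the 165 genes called on the control diet. Filled points are the 68 also called on the high-fat diet, all of equal sign; Fgf1 is high on the control diet (4.86) and on the high-fat diet (5.29).

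PparD and PparA were compared with the same 4 WT libraries, so their values are only set side by side. PparD differed from WT in 22 genes (0.375% of those tested) and PparA in 53 (0.903%), against 165 for PparDA. Of the 165, 35 were also called in PparA and 11 in PparD. An unadjusted edgeR p under 0.05 was reached by 112 of the 165 in PparA and 43 in PparD. Over all 5872 genes 612 and 542 reached it. The shared WT libraries add to this overlap, and counts of calls alone do not measure how far the genotypes differ. For Acaa2 the log2 fold change was 0.80 in PparD (edgeR adjusted p = 0.009), 0.36 in PparA and 0.69 in PparDA. The PPAR target list had 2 genes that rose in PparD with a median log2 difference of 0.43, and none in PparA with a median of 0.12. A departure of PparDA from the sum of PparD and PparA on the log2 scale was called for 7 genes (0.119%). Of these, 2 lay above the sum (0.0341%) and 5 below (0.0851%). The 7 genes were Add3, Rpl28, Rps24, Rps26, Gm15536 and the pseudogenes Rps26-ps1 and Rpl31-ps8. Add3, a subunit of the membrane skeleton protein adducin, averaged 46.5 ± 9.55 CPM in WT, 37.2 ± 9.70 in PparD, 33.9 ± 6.66 in PparA and 78.7 ± 16.8 CPM in PparDA (SD, n = 4 each). It was highest in PparDA, by 1.51 ± 0.26 above the sum on the log2 scale (edgeR adjusted p = 0.0049).

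Among the genes with the largest rises were several that were almost silent in WT. Fgf1, a fibroblast growth factor, had 4.02, 4.37, 4.54 and 8.57 CPM in WT and 140, 136, 134 and 181 CPM in PparDA. Its ranges were far apart, and the log2 fold change was 4.86 ± 0.68 (edgeR adjusted p = 4.5e-05). On the high-fat diet it was 5.29, in PparA 3.47 (adjusted p = 0.017) and in PparD -0.20. Aldh1a3, which makes retinoic acid from retinal, had 6.70, 2.92, 3.03 and 7.14 CPM in WT and 54.3, 41.1, 53.4 and 64.2 CPM in PparDA. These ranges too were apart, with a log2 fold change of 3.38 ± 0.56 (adjusted p = 0.00053).

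Rep15, a partner of the recycling GTPase Rab15, had 68.3, 77.3, 71.2 and 84.3 CPM in WT. In PparDA it had 1036, 998, 499 and 527 CPM, all above WT (log2 fold change 3.39 ± 0.67, edgeR adjusted p = 0.0039). Itch, an E3 ubiquitin ligase, had 50.9, 74.4, 68.1 and 81.4 CPM in WT and 695, 602, 397 and 367 CPM in PparDA. It showed the same separation, with a log2 fold change of 2.96 ± 0.58 (adjusted p = 0.0033). Fgf1, Aldh1a3, Rep15 and Itch kept their calls under every alternative listed in the closing section. Tmem116, a membrane protein, had 2.92 to 7.57 CPM in WT and 28.7 to 75.7 CPM in PparDA (log2 fold change 3.25 ± 0.62, adjusted p = 0.0026); its gene overlaps Erp29, so that the reads of the pair may be shared.

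Defence genes of Paneth and absorptive cells were in this group. Mptx1, a mucosal pentraxin, had 3 counts in all 4 WT libraries together and 55.8, 89.5, 87.0 and 56.0 CPM in PparDA (edgeR adjusted p = 0.0067). The summed counts were 67.5-fold higher in PparDA, with a 95% exact (Clopper-Pearson) counting interval of 22.7 to 330, which covers counting error only. Defa35, an alpha-defensin of Paneth cells, had a single count in WT and 3.02, 24.9, 21.4 and 120 CPM in PparDA (adjusted p = 0.00083), 114-fold higher in PparDA, with a counting interval of 19.9 to 4527. Both genes were above WT in every PparDA library, but alpha-defensin genes are near-identical copies among which reads may be split. Defa35 was not called without run 4. Clec2h, a C-type lectin-like gene, had 3 counts in WT and 5.87 to 21.4 CPM in PparDA (adjusted p = 0.024), 13.9-fold more in summed counts with a counting interval of 4.43 to 70.4, and its call was lost without either library of run 1 or 4, the WT library of run 2 or the PparDA library of run 3.

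The falls were led by Ldb3, a PDZ and LIM protein known from the Z-disc of muscle. It had 50.9, 49.6, 30.3 and 35.7 CPM in WT and 1.51, 1.47, 0 and 0 CPM in PparDA, which is 2 counts in all. The summed counts were 54.6-fold lower in PparDA, with a counting interval of 14.8 to 456, and the edgeR adjusted p was 0.00036. Apobec3, a cytidine deaminase that restricts retroviruses, was steady in WT at 130, 130, 132 and 133 CPM and fell to 37.7, 26.4, 32.1 and 28.0 CPM in PparDA. These ranges were far apart, with a log2 fold change of -2.07 ± 0.28 (adjusted p = 2.4e-05). Cope, a subunit of the COPI coat, had 305, 235, 362 and 269 CPM in WT and 121, 134, 99.2 and 142 CPM in PparDA (log2 fold change -1.23 ± 0.22, adjusted p = 0.0012). Cope also did not overlap, and all 3 of these genes kept their calls under every alternative. Sdc2, a cell surface proteoglycan, fell from 32.1 to 38.6 CPM in WT to 11.5 to 19.1 CPM in PparDA (-1.23 ± 0.27, adjusted p = 0.0091). Scn2b, a sodium channel subunit, Fam173b, a mitochondrial methyltransferase, Slc7a7, a transporter of cationic amino acids, Wdr31 and the antisense gene Tnfsf13os fell by 2.22, 1.87, 1.58, 1.51 and 2.45 on the log2 scale (adjusted p = 0.036, 0.019, 0.038, 0.029 and 0.043). Each of these 5 calls was lost on leaving out any of 4 to 7 of the 8 libraries.

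Some goblet cell markers rose in PparDA over WT on the control diet. All 10 tested had higher values, with a median log2 difference of 0.86, and 3 passed the test (30%, beside the 1.67% of all tested genes that were called higher). The sums of the goblet list overlapped, at 1751 to 4792 CPM in WT and 3044 to 7298 CPM in PparDA. In run 1 the PparDA library (3044 CPM) lay below the WT library (4464 CPM). Klk1, a kallikrein, had 34.8, 26.3, 34.8 and 60 CPM in WT and 63.4, 99.8, 87.0 and 70.8 CPM in PparDA. Its ranges were just apart (1.04 ± 0.21 on the log2 scale, edgeR adjusted p = 0.0045). Clca1, a secreted goblet cell protease, had 32.2, 37.9, 22.7 and 7.14 CPM in WT and 40.7, 229, 125 and 173 CPM in PparDA. The run 1 library of PparDA was close to WT and the others well above it (2.42 ± 0.57, adjusted p = 0.014). Zg16, a lectin of the mucus, had 24.1, 61.3, 39.4 and 25.7 CPM in WT and 93.5, 205, 246 and 352 CPM in PparDA, again without overlap (2.56 ± 0.62, adjusted p = 0.018).

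Muc2, the main mucin, and Tff3, its trefoil partner, did not pass (log2 differences 0.92 and 0.81, edgeR adjusted p = 0.40 and 0.16). The WT library of run 4 had the lowest goblet sum of all 8. Without it the median over the list was 0.55 and 1 gene was called, and without the PparDA library of run 4 they were 0.52 and 1. Without run 4 altogether, an alternative chosen after seeing the data, 8 of 10 markers were higher with a median of 0.34, and 1 was called. Clca1 was also lost without the WT or PparDA library of run 2, and Zg16 without the WT library of run 2 or the PparDA library of run 3. On the high-fat diet 6 of 10 markers were higher, with a median of 0.13 and no call.

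Among markers of other mature cell types 1 gene passed the test. All 14 enterocyte markers tested had higher values, with a median log2 difference of 0.58, but none passed; their summed level was 1506 to 1693 CPM in WT and 2183 to 2593 CPM in PparDA, without overlap. Sis, the brush-border sucrase-isomaltase, averaged 12.7 CPM in WT and 65.6 CPM in PparDA (edgeR adjusted p = 0.13). Apoa1 and Apoa4, lipoproteins of chylomicrons, differed by 2.03 and 2.73 on the log2 scale (adjusted p = 0.17 and 0.21). None of 18 tested genes of lipid uptake and lipoprotein assembly passed. The higher values of PPAR targets thus stood beside a higher sum of enterocyte markers in PparDA, and its part in the result was not tested. Set against the same WT libraries, the median log2 difference of PPAR targets was 0.43 in PparD and 0.12 in PparA. The median of enterocyte markers was -0.19 in PparD and 1.085 in PparA. The enterocyte sums of PparA were uneven, at 1394, 4503, 1517 and 2709 CPM in runs 1 to 4, with runs 1 and 3 near the WT range. How these lists relate was not tested. Of 15 Paneth markers 14 were higher and none passed, their sums of 4328 to 16640 CPM in WT and 4008 to 43100 CPM in PparDA overlapping widely. Among 8 enteroendocrine markers Reg4 alone passed (12.5%), with 69.7, 39.4, 62.1 and 44.3 CPM in WT and 89.0, 129, 140 and 252 CPM in PparDA. It did not overlap (1.44 ± 0.39, adjusted p = 0.038), but the call was lost with DESeq2 and on leaving out either library of run 2, 3 or 4. Tuft cell markers held no call.

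**Figure D4:**
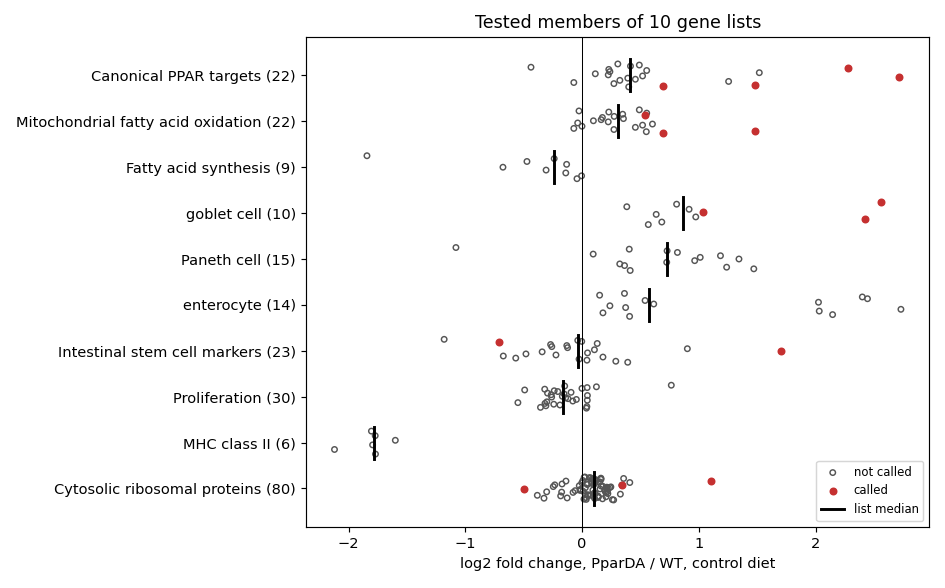
Log2 fold change of PparDA over WT on the control diet for each tested member of the gene lists (points), with the list median as a bar. Goblet cell markers (median 0.86) and PPAR targets (0.41) lie to the right of zero and MHC class II genes (-1.78) to the left; filled points passed the test.

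Most stem cell genes did not pass the test, and 2 of 23 did (8.7%, beside 2.81% of all tested genes). Lgr5, the receptor that marks crypt base stem cells, had 29.5, 39.4, 40.9 and 64.3 CPM in WT and 46.8, 35.2, 48.9 and 46.1 CPM in PparDA. These overlapped, with a log2 difference of 0.05 ± 0.23 (edgeR adjusted p = 0.96). Olfm4, the abundant secreted marker of the same cells, had 7080 to 12026 CPM in WT and 9180 to 12108 CPM in PparDA (log2 difference 0.11, adjusted p = 0.69). Ascl2, their transcription factor, differed by 0.29 (adjusted p = 0.65). Of 23 tested stem cell genes 9 were higher and 14 lower, and the median was -0.04. Soat1, which esterifies cholesterol, fell from 251 to 310.0 CPM in WT to 103 to 241 CPM in PparDA, without overlap (-0.71 ± 0.18, adjusted p = 0.029). Nrn1, a small membrane-anchored protein, rose by 1.70 ± 0.47 (adjusted p = 0.042). Neither call was firm: that of Soat1 was kept only without the PparDA library of run 1 or the WT library of run 3, and that of Nrn1 only without the PparDA library of run 1.

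Proliferation genes were lower in 23 of 30 with a median of -0.16, and none passed; Mki67, a marker of dividing cells, differed by -0.09 (edgeR adjusted p = 0.87). MHC class II genes, which present antigen and are expressed by some crypt stem cells, were all lower, 6 of 6, with a median log2 difference of -1.78, and none passed. H2-DMa, which loads peptides onto class II molecules, had 246, 143, 321 and 113 CPM in WT and 64.9, 19.1, 133 and 57.6 CPM in PparDA. Only the highest PparDA library reached into the WT range (-1.60, adjusted p = 0.10). Cd74, the invariant chain, averaged 341 CPM in WT and 102 CPM in PparDA (adjusted p = 0.21). The same 6 genes had a median of -1.21 on the high-fat diet.

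Chromosome 15, which carries Ppara, held 16 called genes of 218 tested (7.34%, beside 2.81% overall; 7 higher, 9 lower), and within 10 Mb of Ppara 5 of 86 were called (5.81%). One of these 5 was the pseudogene Rpl31-ps8, whose WT counts came from 1 library and whose call was lost without the run as a block, with DESeq2 and without either library of run 1. In PparA against the same WT libraries, 11 of the 218 were called. Cyb5r3, a cytochrome b5 reductase at chr15:83153494-83172592, at -2.56 Mb from Ppara, had the smallest p of all genes. It had 81.7, 64.2, 99.9 and 75.7 CPM in WT and 300.2, 320, 295 and 303 CPM in PparDA. The PparDA libraries lay close together and all far above WT (1.93 ± 0.14 on the log2 scale, edgeR adjusted p = 4.1e-10). The log2 fold change was 1.87 on the high-fat diet (adjusted p = 4.4e-10), 1.82 in PparA (adjusted p = 8.6e-10) and -0.01 in PparD.

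Apobec3, at -5.82 Mb from Ppara, had a log2 fold change of -2.01 on the high-fat diet, -1.76 in PparA (edgeR adjusted p = 0.00025) and 0.25 in PparD. Serhl, a serine hydrolase-like gene at -2.62 Mb, fell from 83.1, 58.3, 92.4 and 40.0 CPM to 27.2, 20.5, 25.95 and 34.6 CPM (-1.34 ± 0.27, adjusted p = 0.0045); it overlaps Rrp7a. Lgals2, a galectin at -6.88 Mb, was far more abundant and fell from 7164 to 8840 CPM in WT to 5179 to 6282 CPM in PparDA (-0.42 ± 0.09, adjusted p = 0.0095), a call lost without the PparDA library of run 1. All of these ranges were apart. Farther off, Ywhaz, a 14-3-3 adaptor at -48.94 Mb, had 115 to 139 CPM in WT and 272 to 288 CPM in PparDA (1.15 ± 0.13, adjusted p = 1.5e-06). Cmbl, a hydrolase at -54.14 Mb, had 18.96 to 38.8 and 113 to 161 CPM (2.09 ± 0.28, adjusted p = 2.4e-05). Deptor, an inhibitor of mTOR on the same chromosome, rose by 1.25 ± 0.23 (adjusted p = 0.0024). The parental strain of the Ppara-null allele and its flanking sequence were not examined here.

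**Figure D5:**
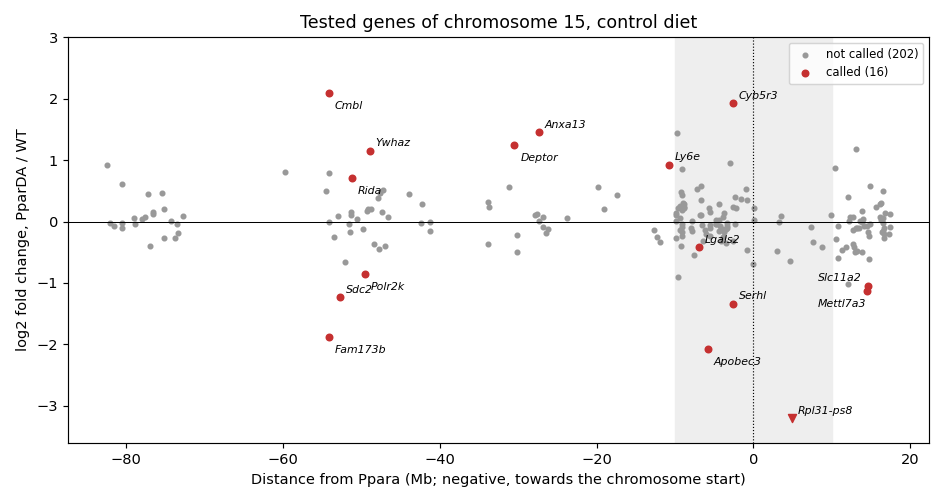
Log2 fold change of PparDA over WT on the control diet for the 218 tested genes of chromosome 15, by distance from Ppara in Mb. The grey band spans 10 Mb to each side; colored points are the 16 called genes, with Cyb5r3 at 1.93 and Apobec3 at -2.07, and the triangle at the lower edge is off the scale.

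Near Ppard 5 of 143 tested genes within 10 Mb were called (3.5%), a share near the 2.81% of all tested genes. Ppt2, a lysosomal thioesterase 6.32 Mb beyond Ppard (chr17:34616662-34628510), had 6.70, 5.83, 9.08 and 8.57 CPM in WT and 31.7, 33.8, 41.2 and 41.1 CPM in PparDA. The genotypes did not overlap (2.26 ± 0.30 on the log2 scale, edgeR adjusted p = 2.4e-05). In PparD it was 2.69 (adjusted p = 7.2e-07) and in PparA -0.15, but on the high-fat diet PparDA differed from WT by only 0.48 (adjusted p = 0.68). Ppil1, a peptidyl-prolyl isomerase 0.95 Mb from Ppard, fell from 134, 136, 106 and 117 CPM to 75.4, 67.5, 74.8 and 62.5 CPM (-0.82 ± 0.18, adjusted p = 0.011), a call lost without the WT library of run 2. Its value in PparD was also -0.82 (adjusted p = 0.04). H2-T23, an MHC class I gene, fell by 0.90 ± 0.19 (adjusted p = 0.0077). H2-Bl, annotated as a polymorphic pseudogene of the same family, had at most 3.03 CPM in WT and 30.5 to 51.0 CPM in PparDA (adjusted p = 0.031), a call lost without the run as a block and on leaving out any library except the PparDA library of run 2. Its log2 fold change was 4.36 in PparDA, 4.82 in PparA (adjusted p = 0.023) and 4.09 in PparD (adjusted p = 0.16). Class I genes are similar to one another and reads may be split among them. Angptl4, described above, is the remaining gene.

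A stretch of chromosome 14 from 50.5 to 55.0 Mb held 8 called genes of 32 tested (25%, beside 2.81% of all tested genes, for borders drawn after the calls were seen), 4 in each direction. On the high-fat diet 6 of its genes were called, and none in PparA or PparD against WT on the control diet. A gene not called there may still differ. The pseudogene Gm4742, with 2 counts in WT, had log2 fold changes of 4.31 in PparDA, 3.42 in PparA and 0.01 in PparD. Oxa1l, which inserts proteins into the inner mitochondrial membrane, had 38.8, 24.8, 40.9 and 24.3 CPM in WT and 127, 110.04, 125 and 132 CPM in PparDA. Its ranges were far apart (1.93 ± 0.29 on the log2 scale, edgeR adjusted p = 0.00015). Rnase4, a secreted ribonuclease that overlaps Ang, had 103 to 120 and 226 to 299 CPM (1.21 ± 0.21, adjusted p = 0.0011). Pnp2, a purine nucleoside phosphorylase that overlaps its neighbour Pnp on the same strand, had 14.6 to 42.4 CPM in WT and 2 counts in all in PparDA (adjusted p = 0.018; lost without the PparDA library of run 1 or 3). The summed counts were 38.3-fold lower in PparDA, with a counting interval of 10.3 to 321. Supt16, Slc7a7, Dad1, Pnp and Gm4742 were the other called genes, each lost on leaving out at least 1 library, and Slc7a7 overlaps Oxa1l on the opposite strand.

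Ribosomal protein genes and pseudogenes formed the last group. Of 80 cytosolic ribosomal protein genes 62 were higher, and Rps24 rose while Rpl5 fell. The call of Rpl5 was not firm: it was lost without either library of run 4 or the PparDA library of run 2 or 3. Rps24 had 1119.8, 1401, 1064 and 1930.0 CPM in WT and 3165, 3093, 2725 and 2878 CPM in PparDA. Its ranges were apart (1.1 ± 0.16 on the log2 scale, edgeR adjusted p = 5.1e-05). It was 2.37 in PparD (adjusted p = 5.2e-11), 0.06 in PparA and -0.01 in PparDA on the high-fat diet. The difference between diets was -1.11 (edgeR adjusted p = 0.045), and the departure from the sum of PparD and PparA was -1.34 (adjusted p = 0.0024).

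Of the 20 called pseudogenes 16 were higher in PparDA, and each had a coding transcript with 90.4 to 100% identity, so that reads may have been assigned to the wrong copy. Most were closest to ribosomal protein genes, but Pcna-ps2 was closest to Pcna and Gm4742 to Psma3. Several rises were of similar size in PparA against the same WT libraries: Gm6278 was 7.70 there on the log2 scale and 0.64 in PparD, and Rpl3-ps1 5.89 and -2.69. Other calls differed, such as Gm4294 (-8.12 in PparDA, -1.12 in PparA, -8.08 in PparD). Gm6278, closest to Rplp0 (96.4% identity), had 5.36, 5.83, 3.03 and 5.71 CPM in WT and 759, 1608, 1595 and 1455 CPM in PparDA (8.01 ± 0.88 on the log2 scale, edgeR adjusted p = 1.5e-06). Its counts rose far out of the WT range, while Rplp0 itself averaged 4419 CPM in WT and 3716 CPM in PparDA (adjusted p = 0.34). Rpl3-ps1 on the X chromosome, 99.8% identical to Rpl3 of chromosome 15, had 3 counts in WT and 154, 48.4, 24.4 and 24.7 CPM in PparDA. Its summed counts were 59.3-fold higher in PparDA, with a counting interval of 19.9 to 290. Rpl3 averaged 4332 and 5054 CPM (adjusted p = 0.13). Among those that were lower, Rpl31-ps8, Gm4294, Gm9794 and Gm15500 had WT counts in the run 1 library only, and these calls were lost without that library.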

How the data were processed

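The authors deposited expected counts, gene-level estimates rounded to whole numbers, and a table of log2(CPM + 1) values for the same 32 libraries. Salmon 1.1.0, R 4.0.2, edgeR 3.30.2 and mm10 are listed, without roles, per the submitters' processing notes; whether molecular identifiers were used is not stated. The deposited log2 values summed to 1e+06 CPM per library when taken back from the log scale, and served only as a check. Of 54418 identifiers 54166 were matched to GENCODE M21 (GRCm38) for names and coordinates.

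Libraries were assigned to groups by their column names, which carry no replicate number. Genes were filtered with filterByExpr (minimum count 10, minimum total 15), which kept 5872 genes with 97.06 to 97.72% of the counts, and scaled by TMM (factors 0.9416 to 1.0733). A quasi-likelihood model (glmQLFit, glmQLFTest, edgeR 4.0.16, R 4.3.3) with 8 groups and 4 runs was fitted over all 32 libraries, with two-sided tests and Benjamini-Hochberg adjustment over the genes tested. The common biological coefficient of variation was 16.8%. SE is the log2 fold change divided by the square root of F. Library totals limit the precision of genes under about 10 CPM, which hold only a few counts. Intervals cover counting error only.

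The runs of library numbers pair the samples: deviations of WT and PparDA libraries from their group means, taken over genes, correlated at 0.117 to 0.317 within each of the 4 runs, and 31 of the 32 libraries correlated best within their own run. The labels do not say what a run is. Alternatives were a fit without the block, only the groups compared, RLE size factors, no filter, DESeq2 1.42.0, a robust prior, subsets of runs and each library left out. The code was tested on simulated data. The comparison and the gene lists were chosen with earlier results of these data known.

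Genes were named by rule: the 12 largest rises and 12 largest falls among called genes without overlap and with at least 10 CPM in the higher group, leaving out pseudogenes and unnamed genes; called genes within 10 Mb of Ppara or Ppard; a fixed set of PPAR targets and stem cell genes; and up to 4 called members of each list. Chromosome 14 genes, genes with a promoter match, other chromosome 15 genes and pseudogenes were named after their values were seen. Some results are not reported here.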

Additional observations from a re-analysis of the deposited data

Results flagged for a closer look

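In 166 groups of 4 libraries tested, 12 held a library whose gap to the nearest of the others exceeded 0.829 of the group's range; chance gives about 1 in 20. For Fgf1 the highest WT library (8.57 CPM, next 4.54) and the highest PparDA library (181 CPM, next 140) stood apart, both in run 4, and the groups remained far from each other. Single WT libraries held the only counts of Defa35 (1.46 CPM), Mptx1 (4.54 CPM), Clec2h (4.54 CPM) and Rpl31-ps8 (169 CPM). WT values that stood apart were 39.4 CPM of Cyp2c65 at the low end, and 1987 CPM of the Paneth defensin Defa17 and 95.1 CPM of Acadvl at the high end. For Pdia4, a chaperone of the endoplasmic reticulum, the lowest PparDA library had 281 CPM (next 330). The WT library of run 4 stood apart in its Paneth marker sum (16640 CPM, next 5614) and its goblet marker sum (1751 CPM, next 4371).

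The effect of the genotype differed between the diets at an edgeR adjusted p of 0.045 for Rps24, Acadvl, Rpl31-ps8 and Rpl28-ps1. The WT counts of the pseudogene Rpl31-ps8 came from 1 library, so its difference rests on that library. Without the PparDA control library of any 1 run, no gene was called for this difference.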

How the results depend on the processing

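For PparDA against WT on the control diet, 110 genes were called without the run as a block (109 of them shared with the 165), 187 with only the groups compared (116 shared), 165 with RLE factors (163 shared), 136 with DESeq2 (127 shared) and 166 with a robust prior (149 shared). Without the filter on low counts 351 were called. Runs 1 and 3 alone gave 74, runs 2 and 4 alone 75, and runs 1, 2 and 3 together, chosen after seeing the data, 103. Leaving out 1 library gave 82 to 141: 82 without the WT library of run 2, 101 without the PparDA library of run 3 and 96 without that of run 4 were the counts that moved by over 1.5 times. The goblet cell calls (0 to 9) and the PPAR target calls (0 to 6) depend on these settings; runs 1 and 3 alone gave none for either. The causes were not tested.

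On the high-fat diet 92 genes were called without the block, 341 without the filter, 46 in runs 2 and 4, 83 in runs 1 to 3 and 78 to 122 on leaving out 1 library. The diet difference was called for 0 genes without the block, 83 without the filter, 1 with DESeq2, 1 in runs 2 and 4, and 0 to 4 on leaving out 1 library. In PparD, 12 genes were called without the block, 112 without the filter, 35 in runs 1 and 3, 5 in runs 2 and 4, 126 in runs 1 to 3 and 8 to 44 on leaving out 1 library. In PparA these counts were 33, 227, 23, 85, 29 and 22 to 49. The departure from the sum was called for 4 genes without the block, 111 without the filter, 25 in runs 1 and 3, 0 in runs 2 and 4, and 5 to 11 on leaving out 1 library.

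Of the 165 calls 24 were kept under every alternative, and 4 genes changed sign under at least 1. Values of uncalled genes that changed sign were, on the log2 scale, Lgr5 at -0.33, Mki67 at 0.23 and Olfm4 at -0.044 in runs 2 and 4, and Muc2 at -0.030 in runs 1 to 3. On leaving out 1 library Acadvl ranged from -0.18 to 0.093 (positive only without the WT library of run 1), Lgr5 from -0.072 to 0.20 (negative without the WT library of run 1 or the PparDA library of run 1 or 3) and Mki67 from -0.21 to 0.010 (positive only without the WT library of run 3). Genes without counts in both groups under a setting have no value there. Depth limits Ppara, Ppard, Pdk4 and other genes of a few counts, for which differences were not detectable.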
